A study of Mus musculus with 6 samples.

Results

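Nr2f1, Nr2f2, Irx4, Irx5, Hey1, Hey2 and Tbx2 are 7 genes for transcription factors that set apart the chambers of the heart, and they were described here through the open chromatin at their loci in nuclei of newborn mouse hearts. A peak was assigned to a gene where it overlapped the gene body or the 10 kb on either side of it, in the GENCODE M21 annotation of mm10. The 7 genes are 7 of 21911 protein-coding genes. Their windows held 170 of the 587191 peaks in the 6 libraries, which merged into 41 of 169881 regions.

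Chromatin accessibility had been mapped by Omni-ATAC-Seq, which reads where a transposase can insert adapters into DNA, in 50000 heart nuclei for each library at postnatal day 1 (P1). There were 3 groups of 2 biological replicates. The Input libraries held nuclei of WT hearts taken straight from a 2.2 M sucrose cushion. The Myc libraries held nuclei of Nkx2-5 Cre/+; R26RSun1-Myc-Egfp/+ hearts after the same cushion and an immunoaffinity step (MAN-IP) against the Myc tag, and the PCM1 libraries held nuclei of WT hearts after the cushion and MAN-IP against PCM1, a protein around the nuclei of cardiomyocytes (CMs). Whole hearts were used in every group, so atria and ventricles were mixed in each library, and how many hearts went into a library was not given in the sources used here. The Cre driver marks every descendant of an Nkx2-5 expressing cell, which can include smooth muscle and endothelial cells as well as CMs, although the authors chose the 2.2 M cushion to keep mainly CM nuclei, and the short PCM1 incubation labels only a fraction of CM nuclei. Genotype and antibody changed together between Myc and PCM1 and cannot be told apart. In the paper, Input was a part of the cushion nuclei and the remainder went to MAN-IP, so libraries of different groups may share hearts. Which libraries did so was not given in the sources used here.

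Chamber identity is held in place by transcription factors that act against each other. Nr2f1 and Nr2f2 (also called COUP-TFI and COUP-TFII) are nuclear receptors of the atrial programme, and Nr2f2 is also expressed in veins and in mesenchymal cells. Irx4 is a homeobox repressor restricted to the ventricles, Irx5 shapes the gradient of repolarization across the ventricular wall, and Hey1 and Hey2 are Notch-responsive repressors found mainly in atrial and in ventricular myocardium respectively. Tbx2 represses chamber genes in the atrioventricular canal and was counted in neither class. Accessible DNA at such loci marks promoters and candidate regulatory elements, but it does not measure transcription.

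The regions on which the comparisons below turn are shown first. Each is a window of 300 bp of mm10 on the plus strand, centred on the summit of the region in the library where it ranked highest, and each is named by its gene and the distance of the summit from the transcription start site (TSS) in bp, positive in the direction of transcription. Capitals mark short words bound by cardiac factors, searched on both strands. The words were AGATAA for GATA factors, TNAAGTG for NKX2-5, the MEF2 pattern, GGAATG for TEAD factors, GGTGTGA for T-box factors, AGGTCA for a nuclear receptor half-site and CACGTG for the E-box of Hey-type repressors, and none of the words in the printed windows overlapped another. The following 3 windows are shown because both PCM1 libraries and neither Myc library had a peak there. They lie in an intron of Irx4 (chr13:73261954-73262253), just past the 3′ end of Irx4 (chr13:73270696-73270995) and upstream of Hey2 (chr10:30844356-30844655).
Irx4 +1625: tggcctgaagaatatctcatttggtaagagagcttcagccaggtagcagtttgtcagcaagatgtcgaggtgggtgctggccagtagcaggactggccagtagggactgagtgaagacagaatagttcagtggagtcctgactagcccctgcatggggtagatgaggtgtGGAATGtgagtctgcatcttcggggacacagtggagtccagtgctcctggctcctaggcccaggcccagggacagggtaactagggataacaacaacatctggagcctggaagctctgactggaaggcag
Irx4 +10367: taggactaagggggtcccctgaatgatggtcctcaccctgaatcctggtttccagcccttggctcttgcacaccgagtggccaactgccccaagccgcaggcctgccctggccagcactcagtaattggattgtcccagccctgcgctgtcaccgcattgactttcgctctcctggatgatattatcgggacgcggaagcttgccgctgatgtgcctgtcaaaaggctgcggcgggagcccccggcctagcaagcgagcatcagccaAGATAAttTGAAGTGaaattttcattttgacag
Hey2 -1705: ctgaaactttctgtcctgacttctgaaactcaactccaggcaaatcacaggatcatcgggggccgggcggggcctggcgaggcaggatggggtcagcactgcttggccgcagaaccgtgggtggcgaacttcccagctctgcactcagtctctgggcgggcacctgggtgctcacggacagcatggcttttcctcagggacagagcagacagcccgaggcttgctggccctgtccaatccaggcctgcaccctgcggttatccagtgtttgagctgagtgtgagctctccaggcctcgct

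The next pair of windows is shown for the opposite pattern, a peak in both Myc libraries and in neither PCM1 library. They lie downstream of Irx4 (chr13:73278176-73278475) and just downstream of Tbx2 (chr11:85842023-85842322).
Irx4 +17847: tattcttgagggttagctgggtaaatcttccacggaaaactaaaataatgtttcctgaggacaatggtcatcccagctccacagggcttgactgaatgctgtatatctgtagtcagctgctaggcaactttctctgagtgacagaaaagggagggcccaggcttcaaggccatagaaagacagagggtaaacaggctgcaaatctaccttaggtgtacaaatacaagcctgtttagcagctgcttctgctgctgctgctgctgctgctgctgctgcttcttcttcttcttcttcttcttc
Tbx2 +9622: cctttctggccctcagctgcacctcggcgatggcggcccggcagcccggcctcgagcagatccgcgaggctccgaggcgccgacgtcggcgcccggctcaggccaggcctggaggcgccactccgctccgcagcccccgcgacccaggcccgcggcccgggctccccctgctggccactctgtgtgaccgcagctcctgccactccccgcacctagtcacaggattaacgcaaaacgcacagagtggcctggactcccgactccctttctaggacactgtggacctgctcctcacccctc

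The last pair are the regions of highest mean rank at Nr2f2, in an intron (chr7:70361692-70361991), and at Irx4, downstream of the gene (chr13:73277383-73277682). They are shown because both had a peak in all 6 libraries and lay away from the outermost TSS of the gene.
Nr2f2 +4893: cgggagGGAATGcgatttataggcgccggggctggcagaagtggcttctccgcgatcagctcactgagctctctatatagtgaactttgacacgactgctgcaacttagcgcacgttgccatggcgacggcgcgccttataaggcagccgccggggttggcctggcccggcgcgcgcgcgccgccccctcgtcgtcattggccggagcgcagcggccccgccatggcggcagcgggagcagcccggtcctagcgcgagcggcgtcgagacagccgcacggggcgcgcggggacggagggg
Irx4 +17054: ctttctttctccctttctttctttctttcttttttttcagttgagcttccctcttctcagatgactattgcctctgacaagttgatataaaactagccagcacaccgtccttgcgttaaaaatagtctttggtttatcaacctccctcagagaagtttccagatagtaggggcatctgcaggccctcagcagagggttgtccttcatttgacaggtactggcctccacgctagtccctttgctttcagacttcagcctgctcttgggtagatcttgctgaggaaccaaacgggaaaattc

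The Irx4 +10367 window held a GATA word and an NKX2-5 word near its 3′ edge. The Irx4 +1625 and Nr2f2 +4893 windows held a TEAD word each. None of the 7 words was found in the Hey2 -1705, Irx4 +17847, Tbx2 +9622 and Irx4 +17054 windows, which says only that these letters were absent from them. Over the 41 windows at the 7 genes, the GATA word was in 5 (12.2%) and in 17.1% of all 169881 windows. The NKX2-5 word was in 2 (4.88%, against 15.9%), the TEAD word in 6 (14.6%, against 20.3%), the T-box word in 1 (2.44%, against 4.53%), the half-site in 7 (17.1%, against 21.5%), the E-box in 2 (4.88%, against 5.74%) and the MEF2 pattern in 0 (against 2.23%). The 41 windows were richer in G and C, with a median of 59.3% against 49.3%, and their median ratio of observed to expected CpG was 0.542 against 0.223, so the shares of words with different base composition cannot be compared directly.

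The authors called peaks in each library separately, so the depth of a library set how weak a peak could be and still be listed. The lists held between 75336 and 131500 peaks. The genome-wide background, in fragments stacked at a typical position, was 3.96 in Input 1 and between 0.903 and 1.44 in the other 5 libraries, a range of 4.38-fold. A peak was therefore measured in 2 ways. Its rank percentile is its place by -log10 q-value among all peaks of its library, where 100 is the strongest and 0 was given where no peak was listed. Its height is the number of fragments stacked at the summit divided by the genome-wide background of the same library, which removes depth. A missing peak means only that none was called, and whether the depth would have allowed a call is estimated below for the regions where this matters. In nuclei from whole hearts, fewer cells of a type and less opening per cell cannot be told apart.

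All 7 loci had a peak in every library, as did 16616 of all 21911 protein-coding genes. The number of peaks in the 7 windows was 37 and 24 (Input), 30 and 31 (Myc) and 24 and 24 (PCM1). Irx4 had the most regions, 11 in a window of 29.1 kb, or 3.78 per 10 kb, which placed it at percentile 99.9 among protein-coding genes, whose median was 1.02 per 10 kb. Tbx2 followed with 7 regions and 2.38 per 10 kb (percentile 95). Hey2 and Irx5 had 6 regions each, Nr2f2 had 5 and Nr2f1 had 4. Hey1 had only 2 regions, at 0.837 per 10 kb below the median gene. By class, the 3 ventricular genes held 23 regions and the 3 atrial genes 11.

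**Figure D1:**
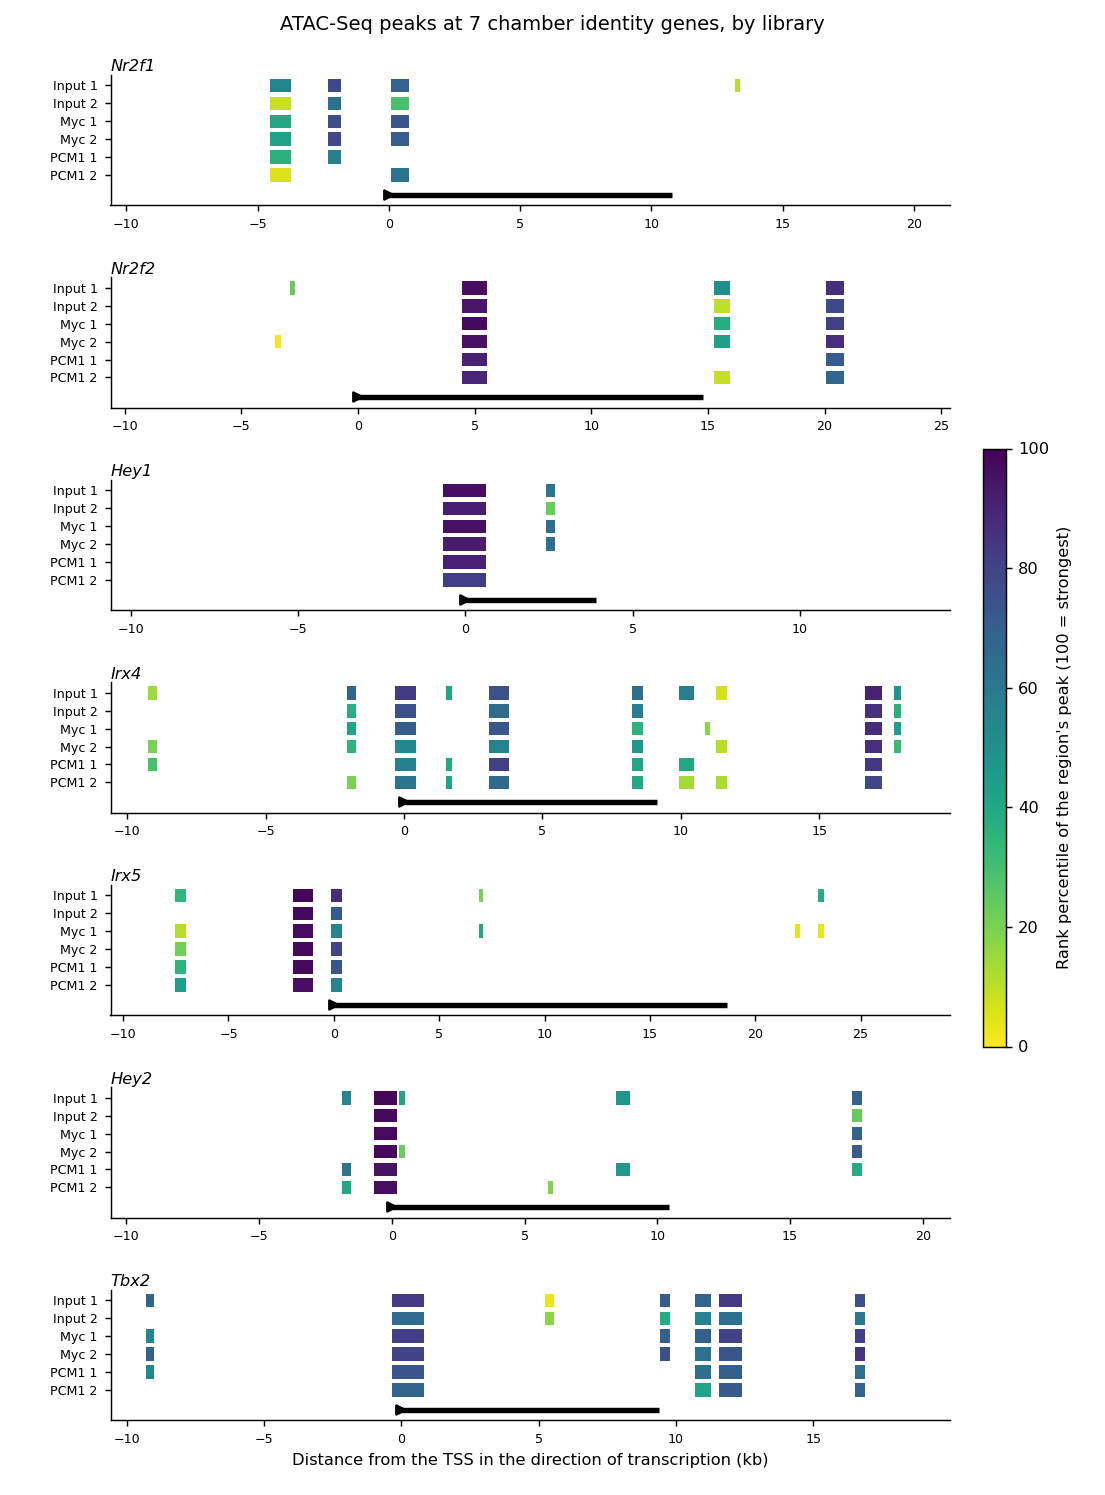
Position of every accessible region at the 7 genes in each of the 6 libraries, as distance from the TSS in kb in the direction of transcription, with the gene body as a black line that starts at an arrowhead. A bar is the merged region where that library had a peak and its colour is the peak's rank percentile. The bars show 11 regions around Irx4 against 2 at Hey1, no bar at the outermost Nr2f2 TSS, and gaps in the PCM1 rows at Hey1 +2538 and Tbx2 +9622.

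Of the 41 regions, 15 (36.6%) had a peak in all 6 libraries, against 28.8% of all regions. These were 4 at Irx4, 4 at Tbx2, 2 at Nr2f2, 2 at Irx5 and 1 each at Nr2f1, Hey1 and Hey2. A further 6 regions (14.6%) had a peak in 1 library, against 30.4% of all regions. The shared regions were longer, with a median of 752 bp against 297 bp for the other 26. By place, 11 of the 41 summits lay upstream of the gene, 5 in a UTR exon, 4 in a coding exon, 6 in an intron and 15 downstream.

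The first question was where each locus was most open. The strongest peak of Hey1, Hey2, Irx5 and, in 3 of 6 libraries, Tbx2 lay at or near a promoter. That of Irx4 lay away from its TSS, and that of Nr2f2 lay away from its outermost TSS but nearer to a second annotated start. At Nr2f2, which lies on chromosome 7 (chr7:70351944-70366735, minus strand), no peak was listed within 1 kb of the TSS in any of the 6 libraries. Its strongest region was Nr2f2 +4893, in an intron and 1249 bp from the start of Nr2f2-201, a second annotated start of the gene that was not used as its TSS here. The rank of this region was 96.7 and 94.0 (Input), 97.4 and 95.9 (Myc) and 90.8 and 89.8 (PCM1). Both PCM1 libraries were below all other libraries. A second shared region, Nr2f2 +20377, lay downstream of the gene, 548 bp from the start of the lincRNA Gm44946, with ranks between 67.4 and 86.1.

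Irx4 (chr13:73260479-73269608, plus strand) was open at its TSS, but its strongest region lay 17054 bp from it, beyond the 3′ end. The Irx4 +17054 region had ranks of 90.3 and 86.1 (Input), 87.5 and 86.6 (Myc) and 83.6 and 78.8 (PCM1). At the TSS itself, the Irx4 +153 region ranked lower, at 82.9 and 75.1 (Input), 70.8 and 54.1 (Myc) and 57.4 and 61.5 (PCM1). In 6 of 6 libraries the downstream region was above the promoter. An intronic region, Irx4 +3357, ranked 75.5 and 65.4 (Input), 74.2 and 55.4 (Myc) and 81.3 and 66.2 (PCM1).

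Irx5 (chr8:92357625-92376286, plus strand) carried 1 of the highest peaks of the 7 genes, but this summit, Irx5 -1402, lay 103 bp from the start of Crnde-201, a long non-coding RNA transcribed in the opposite direction. Its ranks were 98.5 and 98.0 (Input), 97.2 and 97.3 (Myc) and 97.6 and 96.3 (PCM1). The region at the start of Irx5 itself, Irx5 +103, was lower and more variable, at 87.7 and 71.6 (Input), 55.3 and 79.9 (Myc) and 73.5 and 54.4 (PCM1). The value given below for Irx5 is thus that of a peak shared with its divergent neighbour.

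Hey2 (chr10:30832359-30842801, minus strand) had its strongest region 91 bp upstream of the TSS, with ranks of 98.7 and 97.8 (Input), 97.2 and 98.0 (Myc) and 95.2 and 96.2 (PCM1). Hey1 (chr3:8663359-8667256, minus strand) had its own at Hey1 +115, with 96.4 and 92.3 (Input), 96.0 and 92.9 (Myc) and 90.9 and 82.1 (PCM1). By these ranks both promoters were lowest in the PCM1 libraries. With lists of equal length, Hey1 ranked 89.9 in PCM1 1 and 89.7 in Myc 2. The Hey1 region was also the longest of the 15 shared regions, at 1284 bp.

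Nr2f1 (chr13:78188973-78199757, minus strand) was the least open of the 7. Its strongest peak had ranks of 78.0 and 62.3 (Input), 76.4 and 78.4 (Myc) and 56.8 and 62.2 (PCM1). In the Input and Myc libraries and in PCM1 1 this was Nr2f1 -1980, which lies in the antisense gene A830082K12Rik, and in PCM1 2 it was the TSS region, Nr2f1 +427, which had no peak in PCM1 1. Each PCM1 library thus lacked 1 of the 2 regions that ranked highest in the other libraries.

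Tbx2 (chr11:85832551-85841948, plus strand) had 4 shared regions of similar strength, at the TSS and at 3 sites downstream of the gene. The TSS region, Tbx2 +37, ranked 83.1 and 65.3 (Input), 81.8 and 79.7 (Myc) and 74.2 and 67.9 (PCM1). The most distal, Tbx2 +16719, lies in the neighbouring gene Gm11444 and ranked 76.5 and 60.1 (Input), 81.9 and 84.6 (Myc) and 62.9 and 68.2 (PCM1), so that both Myc libraries were above the other 4 libraries.

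**Figure D2:**
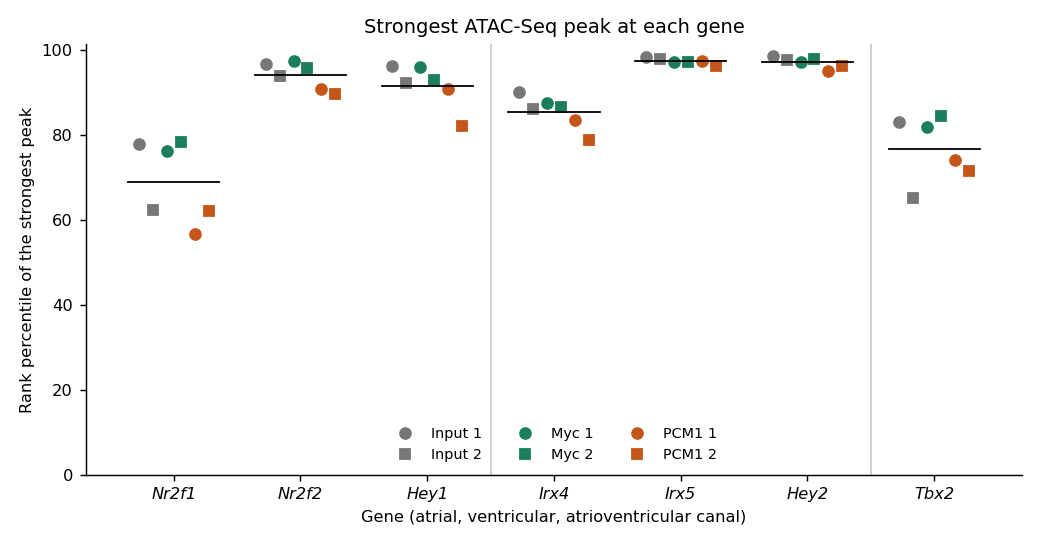
Rank percentile of the strongest peak at each gene (vertical axis, where 100 is the strongest peak of a library), with 1 point per library and a line at the mean of the 6 libraries. Irx5 and Hey2 lie between 95.2 and 98.7 in every library, while Nr2f1 lies between 56.8 and 78.4.

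Across the 6 libraries, the order of the genes by the mean rank of the strongest peak was Irx5 (97.5 ± 0.739, SD, n = 6), Hey2 (97.2 ± 1.29), Nr2f2 (94.1 ± 3.17), Hey1 (91.7 ± 5.19), Irx4 (85.5 ± 3.93), Tbx2 (76.8 ± 7.66) and Nr2f1 (69.0 ± 9.61). Of the neighbours in this order, Irx5 and Hey2, Hey2 and Nr2f2, Nr2f2 and Hey1, and Tbx2 and Nr2f1 differed by less than the larger of their SDs. Among all protein-coding genes the means fell at percentile 83.2 for Irx5, 81.2 for Hey2, 63.9 for Nr2f2, 53.8 for Hey1, 37.8 for Irx4, 26.7 for Tbx2 and 21.4 for Nr2f1. Nr2f1 and Nr2f2, which are of the same family, thus stood far apart.

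Paralogs were compared within the same library, where depth is shared. Nr2f2 exceeded Nr2f1 in 6 of 6 libraries, with a difference in rank percentile of 25.1 ± 6.98 (SD, n = 6, range 17.5 to 34), and Hey2 exceeded Hey1 in 6 of 6, with a difference of 5.44 ± 4.57 (range 1.29 to 14.1). Irx4 was below Irx5 in 6 of 6 libraries, with a difference of -12 ± 3.34. The ventricular regulator Irx4 was also below the atrial regulator Nr2f2 in 6 of 6, with a difference of -8.63 ± 1.75. In an exact permutation test (two-sided, over the signs of the differences), each of these 4 differences had p = 0.0312 (Benjamini-Hochberg adjusted over the 4 pairs, 0.0312), which is the smallest p that 6 libraries can give. The test treats libraries alike and as independent, and it compares genes, not groups. The Irx5 value in it is that of Irx5 -1402, the peak beside the start of Crnde-201. The region at the start of Irx5 itself, Irx5 +103 (mean rank 70.4), was below the strongest peak of Irx4 in 6 of 6 libraries. With 2 kb on each side, which leaves out the region downstream of Irx4, Irx4 minus Irx5 was -25 ± 9.83 and Irx4 minus Nr2f2 -21.6 ± 10.7. When peaks were ranked by fold enrichment, Irx4 minus Irx5 was -3.24 ± 8.69 (adjusted exact p = 0.469), and Irx4 minus Nr2f2 was -5.97 (adjusted exact p = 0.0833). Within 1 kb of the outermost TSS, where Nr2f2 had no peak, both differences that involve it changed sign.

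The mean rank of the 3 ventricular genes was above that of the 3 atrial genes in every library, by 5.49 and 11.1 points (Input), 4.1 and 4.92 (Myc) and 12.6 and 12.4 (PCM1). The means over the 6 libraries were 93.4 and 84.9, a difference of 8.44 ± 4.01 (SD, n = 6), given without a test because it is a score over chosen genes. It depended on the window, with 4.12 ± 6.34 for 2 kb on each side, a difference smaller than its SD. Within 1 kb of the outermost TSS, where Nr2f2 had no peak, it was 31.2. With ranks by q-value the gap was widest in PCM1 and narrowest in Myc. With ranks by fold enrichment this order did not hold, and the gap was wider in both Myc libraries than in both PCM1 libraries. The classes overlapped, since Nr2f2 and Hey1 had higher means by q-value rank than Irx4 and Nr2f1 had the lowest of all 7. The ventricular mean also rests on Irx5 -1402, the peak beside the start of Crnde-201. The region at the start of Irx5 itself, Irx5 +103, had a mean rank of 70.4.

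The second question was whether nuclei recovered through the Nkx2-5 lineage tag and through PCM1 differed at these genes. For the strongest peak of a gene, both Myc libraries were above both PCM1 libraries at 6 of the 7 genes, all but Irx5, and the reverse held at 0. Among all 18600 genes with a peak these shares were 60.3% and 11.8%, so the ranks of most genes were shifted the same way, and 6 of 7 is not particular to these genes. When each list was limited to its 75336 strongest peaks, the counts became 4 and 0 of the 7, and the shares over all genes 43.4% and 22.3%. Hey1 and Irx4 were then no longer separated. With ranks by fold enrichment they were 3 (Irx4, Hey2 and Tbx2) and 1 (Irx5) of the 7, against 46.7% and 16% of all genes. No atrial gene was separated in these ranks, and Irx4 ranked 85.2 and 85.3 in Myc against 72.4 and 67.7 in PCM1. By q-value rank, both Input libraries were above both PCM1 libraries at 6 genes, all but Tbx2, against 33.1% of all genes. The reverse held at 0 (5.48%). Both Input libraries were above both Myc libraries at Irx5 alone, against 11.7% of all genes, and the reverse held at 0 (28.8%). No test between groups was made, because 2 libraries against 2 allow no two-sided exact permutation p below 0.333.

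Summit height gave a more even background. Over the 48861 regions with a peak in all 6 libraries, both Myc libraries were above both PCM1 libraries at 33.8% and below them at 28.4%, and the median log2 ratio of PCM1 to Myc was -0.04. At the 15 shared regions of the 7 genes, Myc was above PCM1 at 7 and below at 2. The 7 included all 4 shared regions of the atrial genes, together with the Hey2 promoter and 2 regions of Tbx2. The 2 with the opposite order were both at Irx4, and Irx5 had none in either direction.

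The Nr2f2 +4893 region had a height of 123 and 129 times the background (Input), 173 and 148 (Myc) and 87.0 and 86.4 (PCM1). The log2 ratio of PCM1 to Myc was -0.89, at percentile 7.92 among the shared regions of the genome. The PCM1 libraries were closely alike and lay below all others. At Nr2f2 +20377 the heights were 41.7 and 46.9 (Input), 45.8 and 59.2 (Myc) and 35.8 and 32.1 (PCM1) (log2 ratio -0.63, percentile 16.1).

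The Hey1 promoter region, Hey1 +115, had heights of 131 and 113 (Input), 151 and 111 (Myc) and 97.3 and 59.8 (PCM1), a log2 ratio of -0.74 (percentile 12.1). Myc and PCM1 did not overlap, although Myc 2 and Input 2 were nearly level. The single shared region of Nr2f1, Nr2f1 -4173, had 17.9 and 15.6 (Input), 24.3 and 23.0 (Myc) and 17.4 and 13.3 (PCM1) (log2 ratio -0.62, percentile 16.2). Here Myc stood above both other groups, which overlapped.

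In summit height, Irx4 stood the other way round at 2 of its 4 shared regions. In its intronic region Irx4 +3357 the heights were 39.9 and 43.0 (Input), 50 and 33.4 (Myc) and 78.8 and 59.8 (PCM1), a log2 ratio of 0.73 (percentile 91). In Irx4 +8398, in a coding exon, they were 24.0 and 31.2 (Input), 22.2 and 25.1 (Myc) and 34.8 and 33.2 (PCM1), a log2 ratio of 0.52 (percentile 83.4). Both PCM1 libraries were above all 4 other libraries at each of these regions. At the promoter, Irx4 +153, the log2 ratio was 0.35, with 45.1 and 32 in Myc and 45.1 and 53.1 in PCM1, so that the lower PCM1 library was level with the higher Myc library. The downstream region Irx4 +17054 was nearly level, at 56.9 and 52.2 (Myc) against 62.5 and 54.3 (PCM1). The median log2 ratio was 0.43 over the 4 shared regions of Irx4, 0.10 over the 7 of the ventricular genes together and -0.69 over the 4 of the atrial genes.

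The other ventricular genes did not follow Irx4. The shared peak of Irx5 and Crnde, Irx5 -1402, had 205 and 230 (Input), 187 and 192 (Myc) and 196 and 178 (PCM1), and its log2 ratio was -0.02. The Hey2 promoter, Hey2 -91, had 206 and 216 (Input), 170 and 189 (Myc) and 137 and 165 (PCM1) (log2 ratio -0.25, percentile 35.9). Both Input libraries were the highest at these promoters. At Tbx2, the TSS region had 37.9 and 34.2 (Input), 51.4 and 48.1 (Myc) and 42.0 and 41.0 (PCM1), and Tbx2 +16719 had 29.8 and 32.2 (Input), 50.7 and 54.3 (Myc) and 31.7 and 37.6 (PCM1). At both, the Myc libraries were above the other 4.

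**Figure D3:**
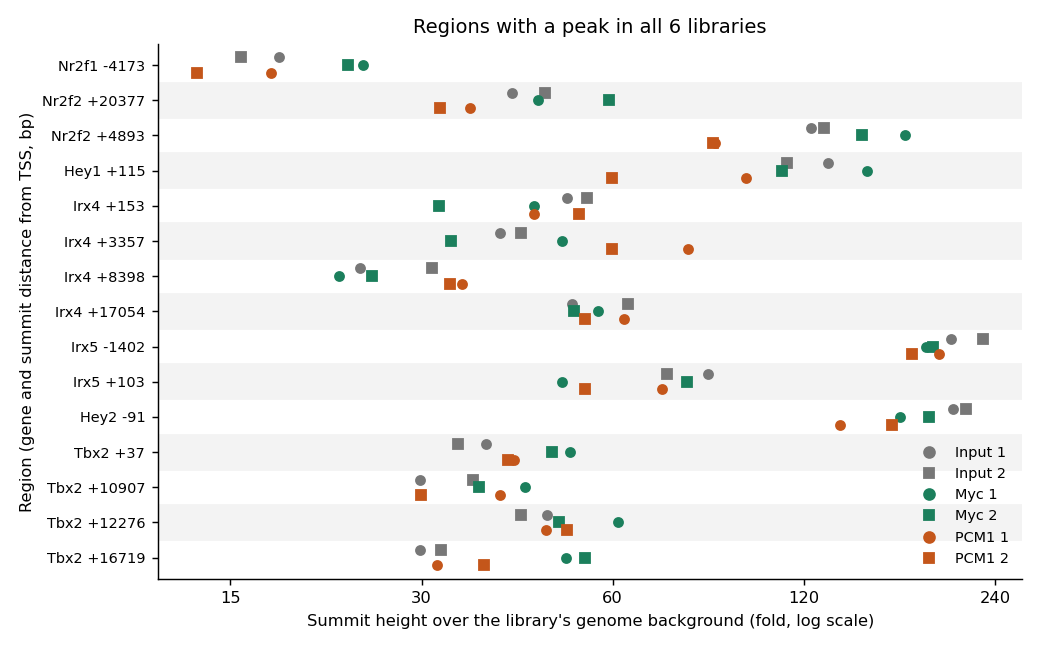
Summit height over the genome background of the library (horizontal axis, fold, log scale) at the 15 regions with a peak in all 6 libraries, with 1 point per library. PCM1 points lie to the left of Myc points at the Nr2f1, Nr2f2 and Hey1 regions and to the right of them at Irx4 +3357 and Irx4 +8398.

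Marker genes of some cell types also differed between these libraries. Of the 60 shared regions at 8 CM markers, PCM1 was above Myc in height at 46 and below at 5, with a median log2 ratio of 0.65. Of the 14 at fibroblast markers, PCM1 was above at 2 and below at 8, with a median of -0.32. Of the 26 at smooth muscle and pericyte markers it was above at 15 and below at 4 (median 0.35), of the 45 at endothelial markers above at 16 and below at 13 (0.09), and of the 9 at epicardial markers above at 2 and below at 2 (-0.03). Over all shared regions PCM1 was above at 28.4% and below at 33.8%. The endothelial (35.6% and 28.9%) and epicardial (22.2% and 22.2%) shares lay nearest to these. The median rank of the fibroblast markers was 79.9 and 59.0 (Input), 74.4 and 76.3 (Myc) and 62.4 and 57 (PCM1), and every fibroblast marker had a peak in both Myc libraries, while Lum had none in Input 2 and PCM1 1. That of the CM markers was, in the same order, 97.7 and 96.5, 92.0 and 93.3, and 96.8 and 96.6. The part of these differences in the values at Nr2f1, Nr2f2, Hey1 and Irx4 was not tested.

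Some weaker regions were found in the nuclei of 1 immunoprecipitate and not in those of the other. Both PCM1 libraries and neither Myc library had a peak at 3 of the 41 regions (7.32%), against 1.09% of all regions. All 3 were at ventricular genes, which held 23 of the 41 regions. The reverse pattern, both Myc libraries and neither PCM1 library, was found at 3 regions (7.32%), against 8.69% of all regions. When each list was limited to its strongest 75336 peaks the first count was 4 and the second 3, and the shares over all regions were 3.55% and 5.5%.

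The intronic Irx4 +1625 region had a height of 22.2 in Input 1, 37.9 in PCM1 1 and 43.2 in PCM1 2, and no peak in Input 2 or in the Myc libraries. Downstream, Irx4 +10367 had 17.7 in Input 1, 31.7 in PCM1 1 and 24.4 in PCM1 2. Upstream of Hey2, Hey2 -1705 had 35.1 in Input 1, 46.1 in PCM1 1 and 39.9 in PCM1 2. The 3 regions shared the same libraries, both PCM1 libraries and Input 1, and the PCM1 heights were above that of Input 1 at each. By an estimate from the libraries with a peak, such peaks were within the reach of the libraries that lacked them. At the mean height of the libraries with a peak, the Myc libraries would have stacked 49.6 and 49.4 fragments at Irx4 +1625, where 24 and 22 were needed for a call over the nearby background, 35.4 and 35.3 at Irx4 +10367, where 15 and 15 were needed, and 58.1 and 57.9 at Hey2 -1705, where 31 and 31 were needed. Input 2 would have stacked 35.3, 25.2 and 41.3 fragments at these regions, where 17, 13 and 28 were needed. The nearby background was taken from the closest called peak of the same library, between 609 and 1938 bp away, so the background at the region itself was not measured.

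Of the regions with the reverse pattern, Hey1 +2538, in the last coding exon, had heights of 32.1 and 27.3 in Input and 47.9 and 43.9 in Myc. Just downstream of Tbx2, Tbx2 +9622 had 31.8 and 30.3 in Input and 44.4 and 50.8 in Myc. At both, Myc was above Input and neither PCM1 library had a peak. At the mean height of the libraries with a peak, PCM1 would have stacked 36.9 and 34.1 fragments at Hey1 +2538, where 19 and 13 were needed, and 38.4 and 35.5 at Tbx2 +9622, where 17 and 15 were needed. The third, Irx4 +17847, was weaker, with 14.4 and 21.5 in Input and 20.8 and 16.7 in Myc, and its expected stack of 17.9 and 16.6 fragments in PCM1 was close to the 15 and 13 needed, so that it was near the limit of detection. No PCM1 height was listed at Irx4 +17847, so the order of Myc and PCM1 there is not known.

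**Figure D4:**
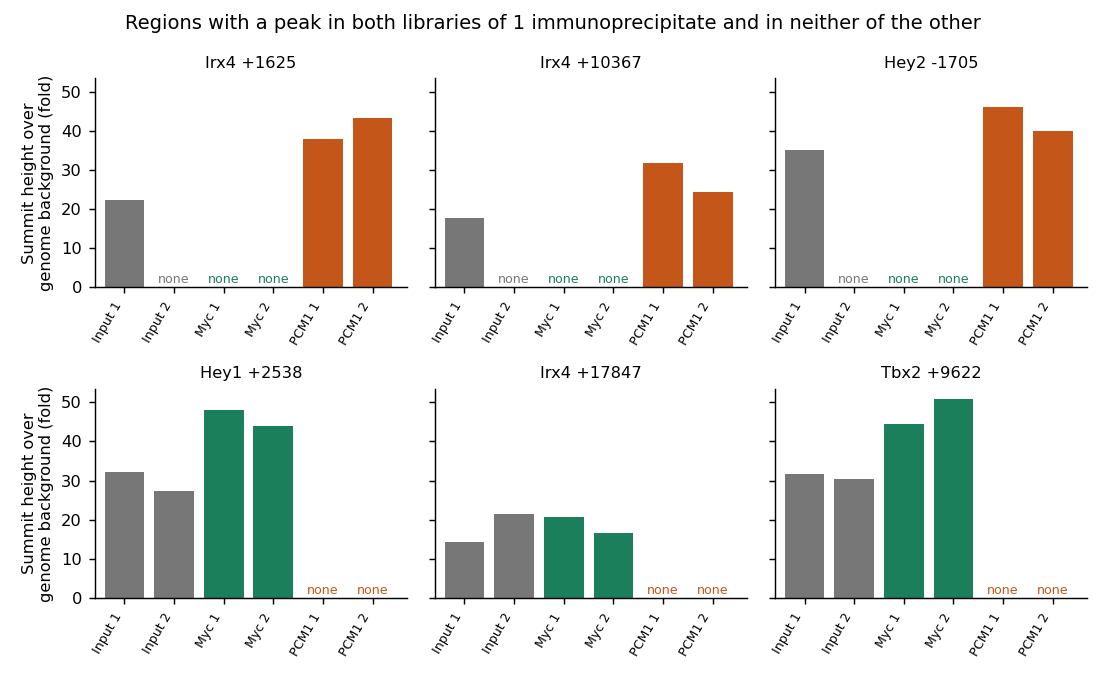
Summit height over the genome background (vertical axis, fold) in each library at the 6 regions with a peak in both libraries of 1 immunoprecipitate and in neither library of the other, with "none" where no peak was listed. The upper row shows the regions of Irx4 and Hey2 found in both PCM1 libraries and Input 1, and the lower row those of Hey1, Irx4 and Tbx2 found in both Myc and both Input libraries.

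Against Input, few regions were limited to a group. Both Input libraries and neither PCM1 library had a peak at 4 regions (9.76%, against 4.51% of all regions), which were the 3 regions just described and Tbx2 +5414, in a coding exon. The last also was the only region with a peak in both Input libraries and in neither Myc library (2.44%, against 1.91%), and it was weak, at a rank of 3.07 and 17.7. No region had a peak in both PCM1 and neither Input library (0, against 0.496%), and none in both Myc and neither Input library (0, against 2.38%). Every group-limited region of the 7 genes was therefore also listed in at least 1 Input library, at some of them only in Input 1, the deepest. With shares this low over all regions, 0 of 41 is not particular to these genes.

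Other genes of each chamber programme were read in the same way. Of 12 atrial genes, which encode contractile, channel and signalling proteins of the atria, 5 had both Myc libraries above both PCM1 libraries in the rank of their strongest peak and 4 the reverse. Kcnj3, a subunit of the acetylcholine-activated potassium channel, ranked 62.5 and 74.7 in Myc and 46.7 and 54.3 in PCM1, and the potassium channel gene Kcna5 77.3 and 79.0 against 65.6 and 69.0. The atrial light chain gene Myl7 ranked 56.8 and 61.7 in Myc and 63.2 and 70.8 in PCM1, and Bmp10, which drives trabecular growth, 81.5 and 83.6 against 88.8 and 93.5. Nppa, the gene for atrial natriuretic peptide, ranked 71.7 and 80.5 against 69.5 and 65.5. The shares over all genes were 60.3% and 11.8%, as above. In summit height, PCM1 was above Myc at 14 of the 43 shared regions of these genes and below at 8 (median log2 ratio 0.18), against 28.4% and 33.8% of all shared regions.

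Of 12 ventricular genes, 4 had Myc above PCM1 and 4 the reverse, against 60.3% and 11.8% of all genes. Mycn, a driver of ventricular CM growth, ranked 92.8 and 91.0 in Myc and 73.6 and 50.8 in PCM1, and Irx1 73.6 and 79.8 against 46.3 and 48.1. Lbh, a transcriptional cofactor, ranked 97.3 and 98.0 against 88.3 and 89.0. By contrast, Irx3, a regulator of the ventricular conduction system, ranked 86.5 and 89.7 in Myc and 94.0 and 94.9 in PCM1, and Myh7, the slow myosin heavy chain gene, 93.0 and 93.9 against 99.3 and 99.6. Members of the Irx family therefore differed among themselves in the direction of the shift. In summit height, PCM1 was above Myc at 24 of the 36 shared regions of these genes and below at 6 (median log2 ratio 0.70), against the same 28.4% and 33.8%.

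Of the 5 genes of the atrioventricular canal, 2 had Myc above PCM1 and 2 the reverse, against 60.3% and 11.8% of all genes. Bmp2, the ligand upstream of Tbx2, ranked 82.8 and 77.2 in Myc and 62.7 and 65.8 in PCM1, and its homeobox target Msx2 87.4 and 82.7 against 74.0 and 80.3. The connexin gene Gjd3 ranked 75.0 and 80.8 in Myc and 89.2 and 89.7 in PCM1, and Tbx3, the closest relative of Tbx2, 96.4 and 97.2 against 99.3 and 99.3. Tbx2 and Tbx3 were thus in opposite order between the groups.

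Of 7 genes of the Notch pathway, which acts upstream of the Hey genes, 3 had Myc above PCM1 and 2 the reverse. The shares over all genes were 60.3% and 11.8%. The ligand genes Jag1 (92.6 and 92.7 in Myc, 81.7 and 79.7 in PCM1) and Dll4 (91.9 and 91.6, against 84.5 and 88.7) were above in Myc, as was the receptor gene Notch2 (97.4 and 96.6, against 93.2 and 95.0). Notch1 (90.6 and 92.4, against 94.8 and 94.5) and Heyl (87.9 and 89.1, against 92.6 and 90.8) were below. The median rank over all protein-coding genes was 90.5 and 90.4 in Myc and 84.6 and 84.0 in PCM1.

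Among 76 listed genes, those whose strongest-peak ranks were closest to 6 of the 7 over the 6 libraries were sought by the mean absolute difference. For Nr2f1 these were Bmp2 (3.36 points) and Pdgfrb (3.54), for Nr2f2 Lbh (1.17) and Notch2 (1.85), and for Hey1 Ryr2 (2.76) and Tie1 (2.89). For Irx5 they were Stard10 (0.875) and Tbx3 (1.17), for Hey2 Stard10 (1.24) and Rbpj (1.25), and for Tbx2 Postn (2.92) and Acta2 (4.4). The likeness is a description over 6 libraries, and the genes compared share depth and enrichment step only within a library.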

How the data were processed

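The authors made 6 Omni-ATAC-Seq libraries from P1 heart nuclei, in 3 groups of 2. The authors trimmed the reads, mapped them to mm10 with Bowtie2 2.3.3.1, marked duplicates with Picard 2.2.1, removed blacklisted regions with bedtools 2.7.1, corrected positions for the Tn5 offset and ran MACS2 2.1.0.20160309 library by library at a q-value threshold of 0.05. The deposited lists hold the interval and summit of each peak, a fold ratio over the local background, the summit's -log10 q-value and -log10 p-value, and a score made from the former. No read counts were used, and replicates were not pooled.

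The number of fragments at each summit and the local background were solved from the deposited fold and -log10 p-value. In each library 99.998 to 100% of summits came out whole within 0.02. Depth was read from the most frequent background. Peaks of the 6 lists were merged where they overlapped by 1 bp or more, and annotated with GENCODE M21. No peak of the lists ran past the end of its chromosome in the reference.

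A gene or region was counted as above in a group when both of its libraries exceeded both of the other. Differences between genes were tested by two-sided exact permutation over 6 libraries. All 7 genes, the region of highest mean rank at each, its TSS region and every group-limited region were named, with at most 5 genes of each chamber list by size of the difference. The members and lists were chosen with earlier results of these data known, and summit heights were added after the ranks had been seen. The genes closest to Irx4 and 1 of the windows are not reported here. The computations were tested on simulated data. Alternatives were a q-value of 0.01, equal numbers of peaks (75336), ranks by fold or by summit pileup, flanks of 2 and 25 kb, peaks within 1 kb of the TSS, presence by summit, Tbx2 counted as atrial, other scalings of height, and each library left out in turn. Python 3.11.15, numpy 2.4.6, scipy 1.17.1, pandas 2.3.3 and matplotlib 3.10.9 were used.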

Additional observations from a re-analysis of the deposited data

How the results depend on the processing

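Of 180 alternative values, 123 were labelled as unchanged. They kept their direction and their side of the threshold, moved by less than the spread or, for counts, stayed within a fixed ratio of the main count. By this rule 4 genes with Myc above PCM1 at equal numbers of peaks, against 6, counted as unchanged. No paired analysis was possible because the comparisons between groups come from counts with no test, and those between genes already pair the genes within a library. With ranks by fold enrichment, Nr2f2 minus Nr2f1 was 34.5 and Hey2 minus Hey1 6.92 (adjusted exact p = 0.0625 for both), Irx4 minus Irx5 -3.24 (0.469) and Irx4 minus Nr2f2 -5.97 (0.0833); Myc was above PCM1 at 3 of the 7 genes and below at 1 (46.7% and 16% of all genes), and the median rank was 75.6 for the ventricular list (91.4 with ranks by q-value), 77 for the atrioventricular canal list (82.7) and 86.5 for the Notch list (93.2). Within 1 kb of the TSS, Nr2f2 minus Nr2f1 reversed to -50.9 (adjusted exact p = 0.0833) and Irx4 minus Nr2f2 to 67 (0.0625), because Nr2f2 had no peak at its outermost TSS. In the same window Hey2 minus Hey1 was 5.44 (0.0625), Irx4 minus Irx5 -5.23 (0.469), and ventricular minus atrial 31.2. With equal numbers of peaks, 4 genes had Myc above PCM1, and the list medians were 75.4 (atrial, against 80.5), 89.2 (ventricular), 78.1 (atrioventricular canal) and 91.4 (Notch). With 2 kb on each side, 25 regions remained, ventricular minus atrial was 4.12 with an SD of 6.34, Irx4 minus Irx5 -25 and Irx4 minus Nr2f2 -21.6, and the medians were 73.7 (atrial) and 89 (ventricular). With 25 kb they were 87.9 (atrial), 94 (ventricular) and 94.5 (atrioventricular canal). With ranks by summit pileup, chosen after seeing the data, they were 94.4 (ventricular) and 94.8 (Notch). The cause of these changes was not tested unless given.

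Leaving out each library in turn gave Nr2f2 minus Nr2f1 between 23.3 and 26.6, Hey2 minus Hey1 between 3.7 and 6.27, Irx4 minus Irx5 between -12.8 and -10.9 and Irx4 minus Nr2f2 between -9.08 and -8.15, each with an exact permutation p of 0.0625, the smallest that 5 libraries can give. Regions held by the Myc and by no PCM1 library numbered 3 to 7 (5 without Myc 1, 7 without Myc 2, 6 without PCM1 1 and 6 without PCM1 2, against 3), while the share of all regions rose from 8.69% to 19, 18.8, 13.6 and 13.4%. Those of the reverse pattern numbered 3 or 4, and their share rose from 1.09% to at most 6.48%. In summit height, Myc was above PCM1 at 7 to 9 of the 15 shared regions and below at 2 to 4 (4 without Myc 1 and 4 without PCM1 2). Scaled by the median height of the shared regions, the counts were 7 and 3, with the Irx4 promoter as the third, and over all shared regions 31.7% and 31.1%.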
